A study of Gallus gallus with 6 samples.

Results

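The 6 transcription regulators of the neural plate border and the neural crest, ETS1, MSX1, MSX2, ZEB1, ZEB2 and LMO4, were followed in chick head ectoderm cells after Sox8 misexpression. They were taken by gene name from a set of 8 names and are 6 of the 24356 genes in the count table. SNAI2 and MITF, the remaining names of the set, were not analysed here. RNA was sequenced from 6 bulk samples of sorted cells, 3 of Sox8OE and 3 of Control. Sox8OE cells carried pCES-Sox8-mCherry, a plasmid for Sox8 with the red fluorescent protein mCherry, together with pTK-Lmx1aE1-EGFP, in which an otic enhancer of the LMX1A locus drives green fluorescent protein. Control cells carried pCES-mCherry and pCES-EGFP, which make both colours without Sox8 and without that enhancer. All embryos were electroporated at head fold stages outside the egg and incubated for 16 to 24 h at 38 °C, and in every sample the embryo's own otic placode was removed and cells positive for both colours were sorted. The groups therefore differed in Sox8 and also in the enhancer that made Sox8OE cells green, and these cannot be told apart. The labels give neither the strain nor the number of embryos per sample, and the study's methods call the samples biological replicates without saying whether they came from separate electroporations, so p-values measure the spread between these samples only.

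The neural plate border is the strip of ectoderm between the neural plate and the surface ectoderm from which the neural crest and the cranial placodes arise. MSX1 and MSX2 are homeobox factors of this strip that respond to BMP signals. ETS1 acts in cranial neural crest cells as they leave the neural tube and also in vessel cells, whereas ZEB1 and ZEB2 are zinc finger repressors of epithelial genes such as CDH1 and take part in the epithelial-mesenchymal transition. LMO4 is an adaptor made of LIM domains that binds other regulators instead of DNA.

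Values below are normalised counts, that is, read counts divided by the DESeq2 size factor of the library, and samples are given in the order of replicates 1, 2 and 3. Total counts were 26326573 to 43288221 per sample in Sox8OE and 35377763 to 46586658 in Control. SOX8 itself had 9931, 8999 and 8500 raw counts in Sox8OE, against 773, 2147 and 1049 in Control, which fits the labels, although construct and embryonic transcripts cannot be told apart. Sox8OE replicate 1 stood apart from its own group: its variance-stabilised counts correlated at 0.901 and 0.931 with Sox8OE replicates 2 and 3 and at 0.969 to 0.975 with the Control samples, across genes, which are not independent replicates. Ribosomal protein genes took 5.17%, 10.6% and 8.13% of all counts of the 3 Sox8OE libraries and 4.94% to 6.74% of those of Control. Markers of surface and placodal ectoderm were present in every sample, with EPCAM at 10127 to 27325 in Sox8OE and 15872 to 16766 in Control. Genes of the neural tube list were detected at unlike levels, with PAX6 at 5928 ± 283 in Sox8OE and 6580 ± 1592 in Control (SD, n = 3 each). SOX2 had only 60.3 to 144 in Sox8OE and 108 to 221 in Control. HES5 had 22916 to 41919 in Sox8OE and 55710 to 68966 in Control. Whether these counts came from neural cells was not tested. Markers of mesenchyme and blood were also detected, among them PDGFRA at 136 to 360 in Sox8OE and 706 to 1140 in Control, and the globin HBZ at 55.9 to 147 in Sox8OE and 60.8 to 139 in Control, whereas the globin HBBA and the mesenchyme gene TCF21 had no count.

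Sox8OE was compared with Control to ask whether crest and border regulators changed when head ectoderm received Sox8. Of the 6 genes, LMO4 alone rose and none fell by the DESeq2 test, at an adjusted p under 0.05. LMO4 was 6.07-fold higher on average, MSX1 was 2.66-fold higher without passing, ZEB2 and ETS1 were 1.85-fold and 2.34-fold lower without passing, and MSX2 and ZEB1 differed least. In bulk samples, fewer cells of a type and less RNA per cell cannot be told apart. A gene was called at an adjusted p under 0.05, with Benjamini-Hochberg adjustment over all genes, together with an absolute log2 fold change over 1.5. By this rule 1 of 6 genes was called, against 4.28% of the 16032 genes tested, and the same gene was the only member with an adjusted p under 0.05, against 5.24% of all genes, 3.94% higher and 1.3% lower. The median log2 fold change was 0.20 over the 6 genes and 0.079 over all genes tested, with 3 members higher and 3 lower, against 53% of all genes higher. The edgeR quasi-likelihood test called none of the 6, against 0.276% of the genes it tested, and limma voom also called none, against 0.222%.

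**Figure D1:**
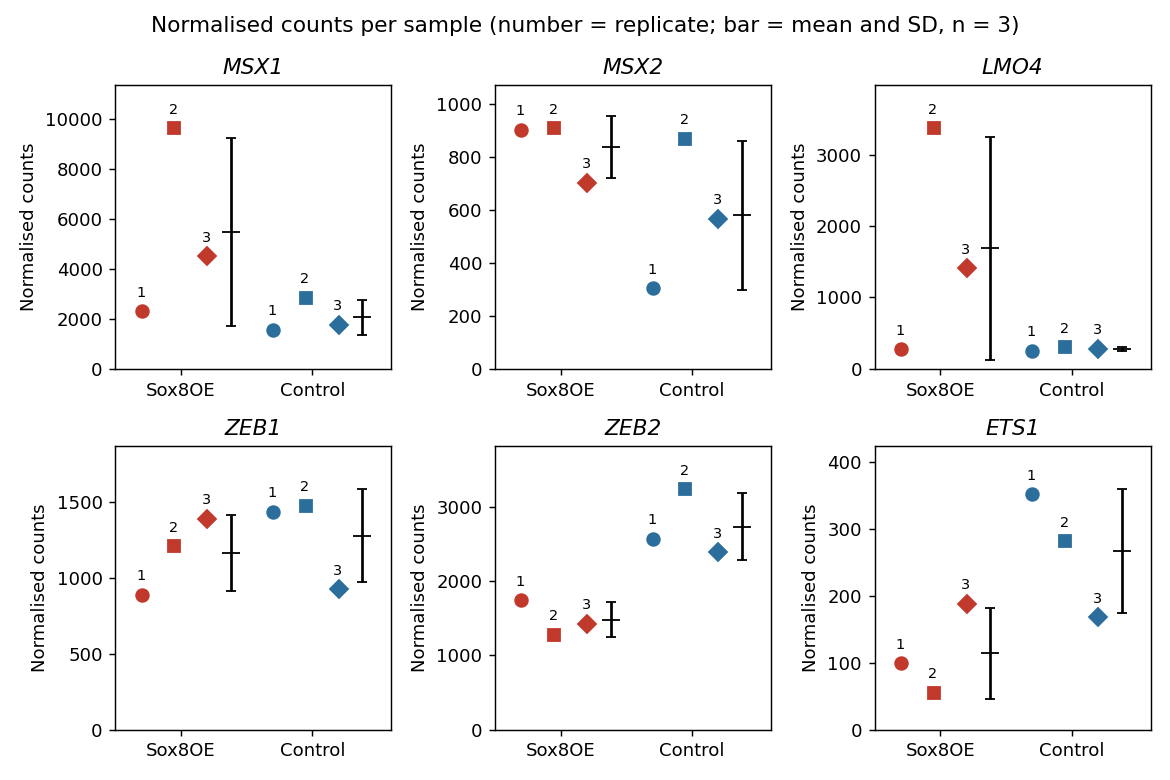
Normalised counts (y axis, linear, from 0) of the 6 genes in each sample, with Sox8OE in red on the left and Control in blue on the right of each panel, the replicate number above each point, and the mean with its SD (n = 3) in black. LMO4 is at 3368 and 1413 in Sox8OE replicates 2 and 3 and at 276 in Sox8OE replicate 1, within the Control range of 253 to 301.

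LMO4 (ENSGALG00000006252) partners regulators of the Snail family in neural crest cells and is needed for the inner ear in the mouse. It had 276, 3368 and 1413 normalised counts in Sox8OE, from 320, 3065 and 1314 raw counts, against 253, 301 and 280 in Control. The high values were those of Sox8OE replicates 2 and 3 only, whereas Sox8OE replicate 1 lay inside the narrow Control range. Its log2 fold change was 2.60 ± 0.68 (SE, DESeq2 adjusted p = 0.0061), with a 95% interval of 1.28 to 3.93. The coefficient of variation was 92.8% in Sox8OE and 8.56% in Control (n = 3 each), and the dispersion fitted for LMO4 was 2.37 times the trend of genes at its level. Leaving out Sox8OE replicate 1 gave a log2 fold change of 3.09 ± 0.35 (SE, DESeq2 adjusted p = 1.9e-16). That sample was seen to stand apart in these same data, so p-values of fits without it understate the spread between samples. In that fit 39.4% of all genes had an adjusted p under 0.05. Without Sox8OE replicate 2 the log2 fold change of LMO4 was 1.59 and the call was lost (DESeq2 adjusted p = 0.17). The edgeR and limma voom tests did not call LMO4, with adjusted p of 0.19 and 0.26.

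MSX1 (ENSGALG00000015013) marks the border and the dorsal neural tube. It had 2293, 9611 and 4495 normalised counts in Sox8OE, against 1564, 2843 and 1757 in Control. As at LMO4, Sox8OE replicate 2 was the highest and Sox8OE replicate 3 the next, while Sox8OE replicate 1 was below the highest Control sample. The log2 fold change of 1.41 ± 0.52 (SE), with a 95% interval of 0.38 to 2.44, had a DESeq2 adjusted p of 0.089 and did not pass. Without Sox8OE replicate 1 it was 1.77 ± 0.35 (SE, DESeq2 adjusted p = 2.6e-06), past both thresholds, and without Sox8OE replicate 2 it was 0.71 (DESeq2 adjusted p = 0.59). With total counts as size factors MSX1 also passed, at 1.65 (DESeq2 adjusted p = 0.034). That scaling also moved the median log2 fold change of genes with at least 10 counts in 3 samples, from 0.042 to 0.26. The samples in which LMO4 and MSX1 were high are those with the highest share of ribosomal protein counts and the smallest totals; the part of either in these values was not tested.

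MSX2 (ENSGALG00000038848) is the close relative of MSX1. Its normalised counts were 903, 908 and 702 in Sox8OE, against 305, 868 and 566 in Control. The Sox8OE samples lay within 1.29-fold of each other, and the spread was in Control, where the highest sample was 2.85 times the lowest. The log2 fold change of 0.53 ± 0.44 (SE), with a 95% interval of -0.34 to 1.40, had a DESeq2 adjusted p of 0.47. Leaving out single samples moved it between 0.22 and 0.93, and none of these fits passed.

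Since both genes were counted in the same libraries, their ratio does not depend on the scaling between libraries. The MSX1/MSX2 ratio of raw counts was 2.54, 10.6 and 6.4 in Sox8OE, against 5.13, 3.28 and 3.11 in Control. The ratio was thus lowest of all samples in Sox8OE replicate 1 and highest in Sox8OE replicates 2 and 3, and the groups overlapped. In an exact two-sided permutation test on log2 ratios the difference of 0.57 had p = 0.5, and 0.1 is the smallest p that 3 samples against 3 allow. Gene length does not enter a comparison of such ratios between samples, but the ratio is no measure of how many MSX1 molecules there were per MSX2 molecule.

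**Figure D2:**
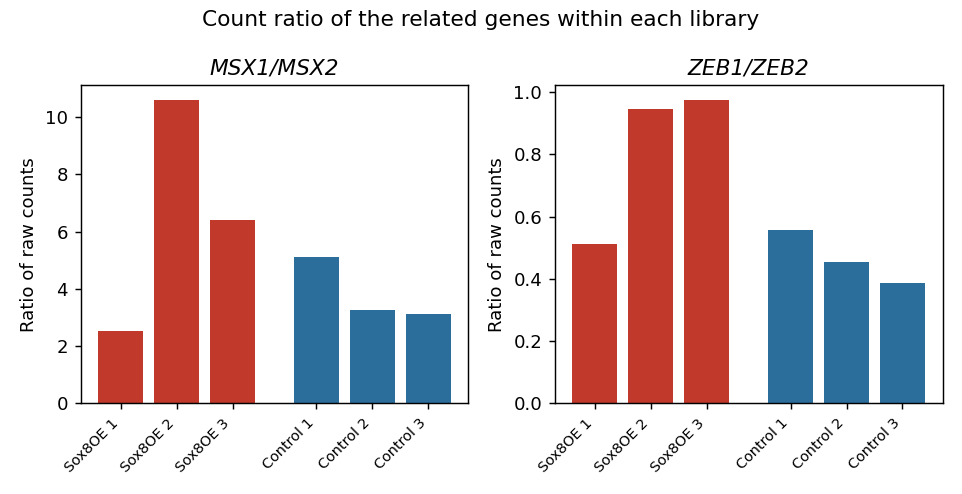
Ratio of raw counts (y axis, linear, from 0) of MSX1 to MSX2 on the left and of ZEB1 to ZEB2 on the right, 1 bar per library, Sox8OE in red and Control in blue. Both ratios are high in Sox8OE replicates 2 and 3, while Sox8OE replicate 1 is at 2.54 for MSX1/MSX2 and 0.511 for ZEB1/ZEB2.

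The repressors of the Zeb family, ZEB1 and ZEB2, were compared in the same way. ZEB2 (ENSGALG00000040465), which in humans is lost in a syndrome with neural crest defects, had 1739, 1277 and 1423 normalised counts in Sox8OE, against 2571, 3239 and 2391 in Control. It was the only one of the 6 genes whose groups did not overlap, with every Sox8OE sample below every Control sample. Over all genes tested, 9.09% had such non-overlapping lower values, and 19.2% did not overlap in either direction. ZEB2 did not pass (DESeq2 adjusted p = 0.069) at a log2 fold change of -0.89 ± 0.31 (SE), whose 95% interval ran from -1.5 to -0.27. Without Sox8OE replicate 1 the adjusted p was 9.4e-05 in DESeq2, at a log2 fold change of -1.03, below the fold change threshold, whereas leaving out any other sample gave 0.26 to 0.39. The coefficient of variation of ZEB2 was 16.0% in Sox8OE and 16.3% in Control (n = 3 each), and its dispersion, at 0.538 times the trend, was the lowest of the 6 genes on that measure.

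ZEB1 (ENSGALG00000007260) had 889, 1208 and 1387 normalised counts in Sox8OE, against 1434, 1472 and 923 in Control. The groups overlapped almost fully, with the lowest value of all samples in Sox8OE replicate 1 and the next in Control replicate 3. ZEB1 did not pass either (DESeq2 adjusted p = 0.84) at a log2 fold change of -0.14 ± 0.36 (SE), whose 95% interval ran from -0.84 to 0.57. It turned positive with total counts as size factors (0.11) and without Sox8OE replicate 1 (0.012), so no direction is given. The ZEB1/ZEB2 ratio of raw counts was 0.511, 0.946 and 0.974 in Sox8OE, against 0.558, 0.454 and 0.386 in Control, and the exact two-sided permutation test on log2 ratios gave p = 0.2 for the difference of 0.76.

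ETS1 (ENSGALG00000001143) had the fewest raw counts of the 6 genes, 115, 50 and 175 in Sox8OE, against 318, 359 and 182 in Control. Its normalised counts were 99.1, 54.9 and 188 in Sox8OE, against 351, 282 and 168 in Control. The groups overlapped through Sox8OE replicate 3, which lay above Control replicate 3. The log2 fold change of -1.23 ± 0.56 (SE), with a 95% interval of -2.32 to -0.13, had a DESeq2 adjusted p of 0.18. All fits that left out 1 sample kept it negative, from -1.79 to -0.91, and none passed. Vessel cells also make ETS1, and the vessel receptor KDR had 99.1, 56.0 and 20.4 normalised counts in Sox8OE, against 6.63, 8.63 and 148 in Control. The 12 vessel and blood markers measured summed to 1028 to 2884 normalised counts in Sox8OE and 1101 to 1851 in Control, with HBBA at 0 and HBZ detected in every sample, and none of the 10 that could be tested passed an adjusted p of 0.05. The smallest p among them was that of EGFL7, a factor secreted by vessels, at a log2 fold change of -1.15 (DESeq2 adjusted p = 0.083). EGFL7 had 308, 159 and 202 normalised counts in Sox8OE, against 648, 436 and 401 in Control, so its groups did not overlap. PECAM1, another of these markers and an adhesion protein of vessels, had 299, 2346 and 2074 in Sox8OE, against 617, 400 and 880 in Control. FLI1, an Ets factor of vessels and blood read from another list, fell with a log2 fold change of -3.26 (DESeq2 adjusted p = 3.1e-04). ERG, an Ets factor of that same list, had -0.32 and did not pass. SOX18, a vessel marker that also did not pass, had 22.4, 28.6 and 16.1 normalised counts in Sox8OE, against 2.21, 7.85 and 8.31 in Control. Its groups did not overlap, with higher values in Sox8OE. The 10 vessel and blood markers tested had a median log2 fold change of 0.25, against 0.079 over all genes tested. The part of these genes in the ETS1 values was not tested.

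**Figure D3:**
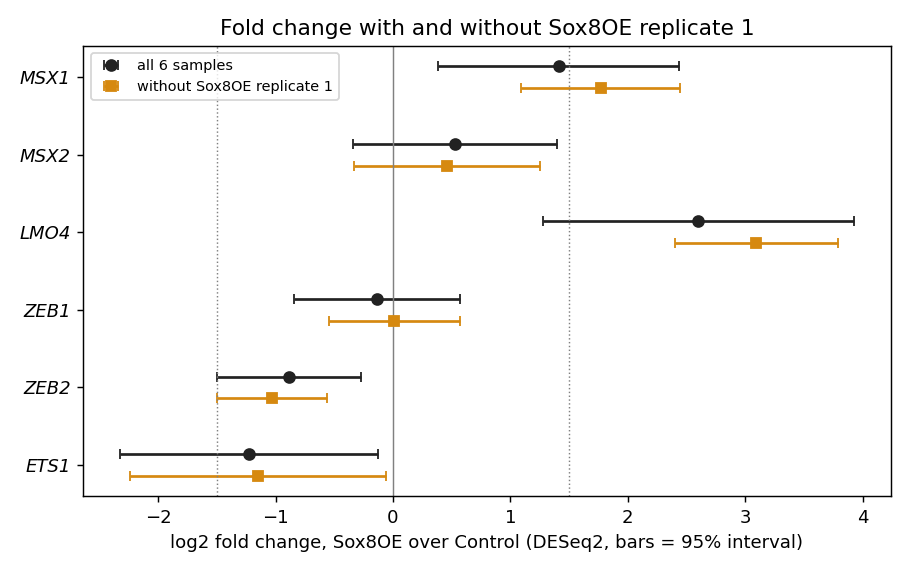
DESeq2 log2 fold change of Sox8OE over Control (x axis) for the 6 genes, with 95% intervals, from all 6 samples (black circles) and without Sox8OE replicate 1 (orange squares); dotted lines mark -1.5 and 1.5. Without that sample the SE is smaller at all 6 genes, least so at ETS1, and MSX1 moves to 1.77 and LMO4 to 3.09.

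Because Sox8OE replicate 1 stood apart, the 6 genes were also read without it. Of the 6 genes, 3 then had an adjusted p under 0.05, namely LMO4 and MSX1, which were higher, and ZEB2, which was lower. Over all genes the share was 39.4%, so the count of 3 in 6 is near the background. Both thresholds were passed by 2 of the 6, against 18.2% of all genes. Sox8OE replicate 1 lay within the Control range at 2 of the 6 genes, MSX1 and LMO4, against 50.3% of all genes tested. At ZEB2, ETS1 and ZEB1 it lay below every Control sample, at 63.6%, 37.1% and 69.7% of the Control mean. At MSX2 it lay above every Control sample, at 156% of the Control mean.

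The genes whose profiles were most like each member were sought among 8955 named genes with a mean of at least 100 normalised counts. Likeness was the root mean square difference, over the 6 samples, of log2(normalised count + 1) centred on the Control mean. For LMO4 the closest were RRAS2 at 0.226, SMARCA4 at 0.230 and SOX4 at 0.253. SOX4, for example, had 188, 2018 and 1360 normalised counts in Sox8OE, against 174, 197 and 164 in Control, with Sox8OE replicate 1 again beside Control. For MSX1 they were GPATCH4 at 0.0993, PRRX1 at 0.120 and the ribosomal protein gene RPL12 at 0.129. For MSX2 they were KANSL2, FMC1 and SLC39A3, at 0.104 to 0.153, and for ZEB1 TICAM1, SLC4A8 and NRBP2, at 0.125 to 0.132. For ZEB2 they were OLFML3, COMTD1 and ACOT7, at 0.137 to 0.141. ETS1 had the most distant neighbours, NLGN4X, SH3BP4 and PENK, at 0.240 to 0.293. Among the members themselves the closest pairs were ZEB1 and ZEB2 at 0.633 and ETS1 and ZEB2 at 0.641, and the farthest were ETS1 and LMO4 at 2.70.

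The wider crest and border genes were read from lists that do not hold the 6 members, and each list's median log2 fold change is to be set beside the 0.079 of all genes tested. Counts of list genes that rose or fell are those with an adjusted p under 0.05, which 3.94% of all genes passed as higher and 1.3% as lower. Earlier results of these data were known when the lists were chosen, so the counts are no test of a list. Of 12 neural crest specifier genes, all tested, 2 rose and 2 fell, with a median of 0.35. SNAI1 (ENSGALG00000008018), a Snail family repressor of epithelial genes, had 693, 199 and 335 normalised counts in Sox8OE, against 2470, 1330 and 1668 in Control. Its groups did not overlap, and the log2 fold change was -2.15 ± 0.50 (SE, DESeq2 adjusted p = 0.0015). It passed in 5 of 6 fits that left out 1 sample and not without Control replicate 1 (0.063). The other gene that fell was TWIST1, a mesenchyme regulator, with a log2 fold change of -3.44 (DESeq2 adjusted p = 4.7e-08). RXRG, a retinoid receptor of migrating crest, rose with a log2 fold change of 1.59 (DESeq2 adjusted p = 0.023), and passed in 2 of 6 fits that left out 1 sample, at worst 0.21 without Control replicate 1. SOX10, a SoxE factor of crest and ear, rose with a log2 fold change of 1.02 (DESeq2 adjusted p = 0.032), and passed in 1 of 6 such fits, at worst 0.33 without Control replicate 1. SOX5 had 1651, 3657 and 3364 normalised counts in Sox8OE, against 1607, 979 and 1275 in Control. Its groups did not overlap, and its log2 fold change of 1.17 did not pass (DESeq2 adjusted p = 0.069). FOXD3, SOX9, NR2F1 and NR2F2, further crest specifiers, had log2 fold changes of 0.63, -0.29, 1.74 and 0.80 and did not pass. MYC, MYCN and ID2, the rest of the list, had 0.072, 0.020 and -0.41 and did not pass either.

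Of the 11 border factors tested, only DLX6, a homeobox gene of placodal and surface ectoderm, passed, and the list's median was 0.077. It had 224, 658 and 338 normalised counts in Sox8OE, against 78.5, 157 and 104 in Control, and its log2 fold change was 1.84 ± 0.52 (SE, DESeq2 adjusted p = 0.016). It passed in 2 of 6 fits that left out 1 sample, at worst 0.31 without Sox8OE replicate 2. PAX7 and ZIC1, which mark the crest side of the border, had log2 fold changes of -0.55 and -0.78, and TFAP2A had 1.28, none of which passed. Of the 10 BMP ligands and targets tested, the Id family gene ID4 alone passed, and the median was 0.33. ID4 had 77.5, 1114 and 187 normalised counts in Sox8OE, against 48.6, 118 and 44.3 in Control, with a DESeq2 adjusted p of 0.028. It passed in 3 of 6 fits that left out 1 sample, at worst 0.69 without Sox8OE replicate 2. The other 9 did not pass and went in both directions. The ligands BMP2, BMP4, BMP5 and BMP7 had log2 fold changes of -0.088, 0.023, -0.94 and 0.63. The targets ID1, ID2, ID3, SMAD6 and BAMBI had -0.32, -0.41, 1.08, 0.85 and 0.77.

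Of 12 genes of the epithelial-mesenchymal transition, 2 rose, 1 fell and 9 did not pass, with a median of 0.14. FN1, the matrix protein fibronectin, had 5981, 11937 and 10418 normalised counts in Sox8OE, against 2244, 3319 and 2657 in Control, and its log2 fold change was 1.79 ± 0.37 (SE, DESeq2 adjusted p = 2.4e-04). RHOB, a small GTPase of delaminating crest, had 687, 2617 and 1809 normalised counts in Sox8OE, against 487, 713 and 609 in Control, and passed narrowly (DESeq2 adjusted p = 0.048), though in 1 of 6 fits that left out 1 sample, at worst 0.39 without Sox8OE replicate 2. CDH6, a cadherin of premigratory crest, fell to 190, 104 and 45.2 normalised counts in Sox8OE, against 945, 561 and 699 in Control, with a log2 fold change of -2.69 ± 0.53 (SE, DESeq2 adjusted p = 7.5e-05). FN1 and CDH6 passed in every fit that left out 1 sample. The Zeb and Snail target CDH1 had 519, 859 and 473 normalised counts in Sox8OE, against 201, 421 and 301 in Control. Its groups did not overlap, with higher values in Sox8OE. Of all genes tested, 19.2% did not overlap in either direction. The log2 fold change of CDH1, 1.0, had a DESeq2 adjusted p of 0.16. EPCAM, CGN and CLDN1, further epithelial genes of the list, had log2 fold changes of 0.030, 1.66 and 0.45. Their groups overlapped and none of them passed. CDH2, CDH7, CDH11, VIM and MMP2, the rest of the list, had -0.35, 0.25, -0.88, -0.11 and -1.42, and none passed. The groups of CDH2 and CDH11 did not overlap and were lower in Sox8OE, as at 9.09% of all genes tested.

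Of 13 relatives and partners of the members that could be tested, 3 fell and none rose, with a median of -0.15. Besides SNAI1 these were FLI1, an Ets factor of vessels and blood, and LDB2, which binds LIM domains such as those of LMO4. FLI1 had 9.47, 8.79 and 4.30 normalised counts in Sox8OE, against 76.3, 77.7 and 63.7 in Control, with a DESeq2 adjusted p of 3.1e-04. LDB2 had 831, 592 and 559 normalised counts in Sox8OE, against 1718, 1324 and 1561 in Control, with a DESeq2 adjusted p of 0.0097. Of 6 fits that left out 1 sample, FLI1 passed in 5 and LDB2 in 2, and without Control replicate 1 the adjusted p was 0.053 for FLI1 and 0.24 for LDB2. The other Lmo genes LMO1, LMO2 and LMO3 had log2 fold changes of 0.28, 0.57 and -0.28, none of which passed.

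Of 10 pigment cell genes tested, 1 rose and 1 fell, with a median of 0.17. SLC45A2, a transporter of pigment organelles, had 12.9, 0 and 4.30 normalised counts in Sox8OE, against 74.1, 98.9 and 57.2 in Control, with a DESeq2 adjusted p of 0.0060. It passed in 2 of 6 fits that left out 1 sample, at worst 0.092 without Control replicate 2. OCA2, another such transporter, had 30, 18 and 11 raw counts in Sox8OE and none in Control. Its Sox8OE mean was 6.81 times a floor of 3 counts in each Control library, and its DESeq2 adjusted p was 0.0080. It passed in 2 of 6 such fits, at worst 0.13 without Sox8OE replicate 2. Of the pigment enzymes in the list, TYR and TYRP1 had at most 3 counts in any library. DCT, another of them, had 28.6 to 233 normalised counts in Sox8OE and 81.6 to 211 in Control. The floor of 3 counts used for OCA2 covers counting error in Control only, since no molecular identifiers are named for these libraries.

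**Figure D4:**
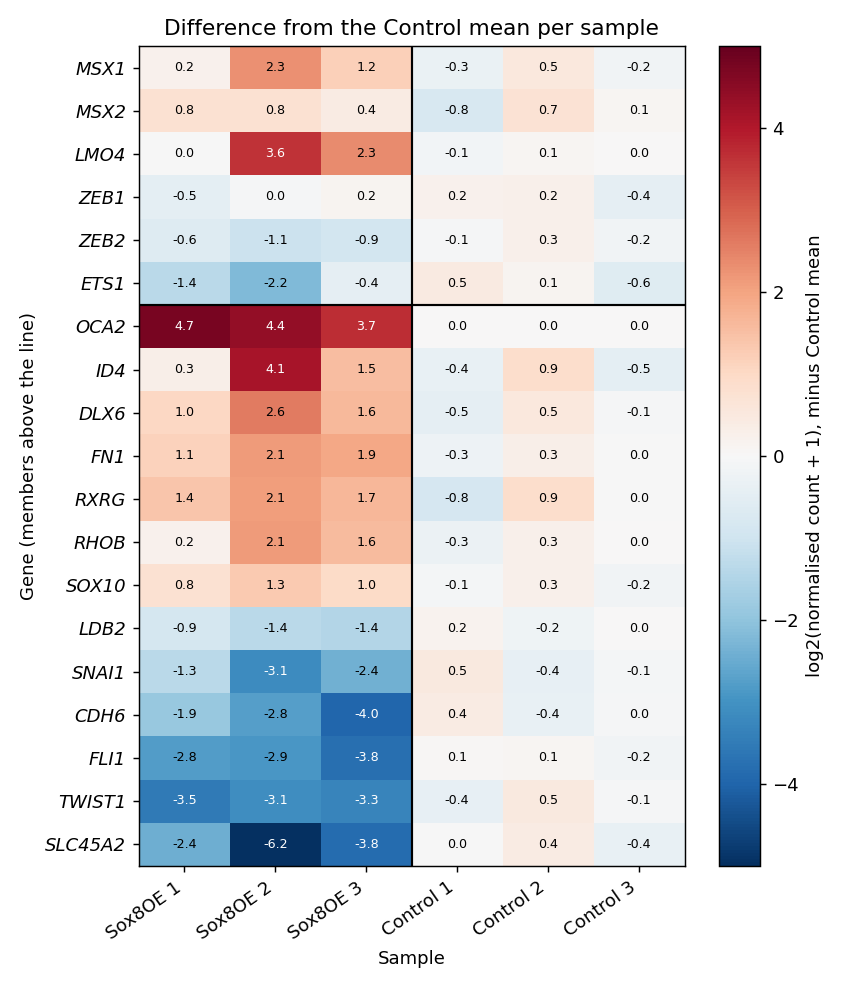
Difference of log2(normalised count + 1) from the Control mean (colour and printed value) in each sample, for the 6 members above the line and, below it, the 13 genes of the 6 crest, border, transition, pigment, family and BMP lists with a DESeq2 adjusted p under 0.05. Sox8OE replicate 1 is near 0 at MSX1 and LMO4, whereas it is far below 0 at TWIST1, FLI1 and CDH6, as are Sox8OE replicates 2 and 3.

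Some markers of other cell types differed between the groups. Of 10 head mesenchyme markers tested, 3 fell and 1 rose, and the 12 measured summed to 1587 to 2201 normalised counts in Sox8OE and 2775 to 3427 in Control. Those that fell were TWIST1, ALX1 and PDGFRA, MEOX1 rose, and by sign alone 6 of the 10 were higher and 4 lower. Of 11 neural tube markers, LHX2 and FABP7 fell and none rose, with a sum of 40662 to 56903 in Sox8OE and 77096 to 86573 in Control. By sign alone 5 of these 11 were higher and 6 lower. Among the higher ones, SOX21 and SIX3 had log2 fold changes of 2.56 and 0.95 and did not pass. Of 14 surface and placodal ectoderm markers, DLX3, DLX6 and KRT18 rose and none fell, with a sum of 35148 to 46642 in Sox8OE and 27017 to 31015 in Control. The medians were 0.41 for the mesenchyme, -0.15 for the neural and 1.04 for the ectoderm markers. KRT18, FABP7, PDGFRA and MEOX1 passed in 4, 1, 4 and 1 of 6 fits that left out 1 sample. The mesenchyme and neural sums were lower in every Sox8OE sample, as was ZEB2. Each separation was lost when 1 gene, found after the values were seen, was left out. Without HES5, a Notch target that did not pass (DESeq2 adjusted p = 0.097), the neural sums were 14984, 17746 and 15938 in Sox8OE, against 17607, 22162 and 17164 in Control, and overlapped. Without ALX1 the mesenchyme sums were 1510, 2194 and 2146 in Sox8OE, against 2262, 2341 and 2063 in Control, and overlapped. Sums without PDGFRA or TWIST1, which also fell, are not given, so the separation is not put down to ALX1 alone. The part of these markers in the members' values was not tested. Across all lists, 103 distinct genes were tested, 10 rose and 10 fell by DESeq2 at an adjusted p under 0.05, against 3.94% higher and 1.3% lower over all genes. The lists were chosen with earlier results of these data known, so these counts cannot be read as an excess over all genes. Of these 20 genes, 6 passed in every fit that left out 1 sample, and the edgeR test called 1, ALX1, at an adjusted p of 0.049.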

How the data were processed

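Reads were trimmed by the authors with Trim Galore, aligned to galGal6 with STAR through nf-core and counted per Ensembl gene with featureCounts, by the submitters' processing notes and the study's methods. The authors deposited raw read counts, not normalised. Annotation release, strand setting and handling of shared reads are not given in the sources used here, so overlapping, antisense and near-identical genes are uncertain. Of 24356 genes, 2945 had no count and 10501 no name.

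Sox8OE was compared with Control by DESeq2 1.42.0 in R 4.3.3 with default settings and group as the only term. The study's methods name DESeq2, its default correction and these thresholds, but no model formula. It gave no adjusted p for 5379 genes with counts, which were left out. A name that repeats was read from the row with most counts. The alternatives were edgeR 4.0.16 and limma 3.58.1 (voom), TMM or total counts as size factors, a minimum of 10 counts in 3 samples, no Cook's filter, other fold change thresholds, a replicate block, and leaving out each sample. The DESeq2 and edgeR fits were also run on simulated counts, drawn at the trend dispersion and without a deviating sample. That run does not show how calls hold at spreads such as that of LMO4 or with a sample such as Sox8OE replicate 1.

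The members and the 10 lists (118 genes, 110 measured, 1 of them by a synonym in a RefSeq table of assembly GRCg7b) were chosen with earlier results of these data known. From each list the genes with an adjusted p under 0.05 are named, at most 5, or else the gene with the smallest p; for each member the 3 genes with the most similar profile are named. The other genes named, among them FOXD3, SOX9, PAX7, ZIC1, TFAP2A, BMP2, BMP4, BMP5, BMP7, ID1, ID2, ID3, SMAD6, BAMBI, CDH1, EPCAM, CGN, CLDN1, PAX6, SOX2, HES5, HBBA, HBZ, TCF21, KDR, PECAM1, DCT, TYR, TYRP1 and the Lmo genes, were chosen for their known roles after their values were seen. No genome of galGal6 was used here, so positions and sequences are not given. Sample totals limit counting error only.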

Additional observations from a re-analysis of the deposited data

How the results depend on the processing

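The sign of the log2 fold change was kept at ETS1, MSX1, MSX2, ZEB2 and LMO4 in all alternatives run, and ZEB1 turned to 0.11 with total counts as size factors and to 0.012 without Sox8OE replicate 1; over the fits that left out 1 sample it ranged from -0.32 to 0.012. LMO4 lost its call in 3 alternatives, and MSX1 gained one in 2. Members called were 1 as reported, 0 by edgeR, 0 by limma voom and 2 with total counts; with an adjusted p under 0.05 alone they were 1, 0, 0 and 2, and 3 with a replicate block. Over the fits that left out 1 sample, members called ranged from 0 to 2 and those under an adjusted p of 0.05 from 0 to 3. Genes called higher and lower were 532 and 154 as reported, 33 and 8 by edgeR and 27 and 6 by limma voom. Total counts gave 926 higher and 130 lower genes, and moved the median log2 fold change of genes with at least 10 counts in 3 samples to 0.26, against 0.042 as reported. Leaving out 1 sample gave 165 to 1557 higher and 51 to 1493 lower genes. The replicate block gave 755 higher and 519 lower genes, with MSX1 at a DESeq2 adjusted p of 0.0038, ZEB2 at 0.035 and LMO4 at 0.0014, and it moved no other member across 0.05. Same-numbered samples deviated together at correlations of 0.302, 0.314 and 0.0688, and Sox8OE replicate 3 did so more with Control replicate 2 (0.0865), so the labels' numbers were not taken as pairs. The causes of these shifts were not tested. ETS1, with 50 to 359 raw counts in a library, is the member for which depth limits precision most.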
